A study of Homo sapiens with 4 samples.

Results

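The genes of fatty acid synthesis and desaturation were followed through 4 RNA sequencing libraries of SUM159 cells. There were 10 of them, SCD, FASN, ACACA, ACACB, ACLY, ELOVL6, FADS1, FADS2, MLXIPL and ACSL1, among 60279 genes in each count table. The list was chosen by the levels of SCD and MLXIPL in these 4 libraries, which fall strongly, and the other 8 were added as the rest of the pathway, so the falls of SCD and MLXIPL are given as a description and support nothing. All 10 passed the filter of a mean of at least 1 CPM, the usual depth-scaled count of a gene relative to all gene reads of its library, as did 14269 genes in all.

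SUM159 is an established triple-negative breast cancer cell line. The conditions were untreated, palbociclib (which blocks the kinases CDK4 and CDK6 that drive entry into the cell cycle), indisulam (a sulfonamide through which the splicing factor RBM39 is degraded) and the combination of both drugs, with 1 library each. All cells grew in DMEM/F12 with 10% FBS, 5 µg/ml insulin and 1 µg/ml hydrocortisone, and no solvent was named for the untreated cells. The labels gave 0.5 µM palbociclib and 2 µM indisulam over 10 days. The series text gave 2 µM and 3 µM over 16 h, in technical duplicates. The paper reports both settings for SUM159, the longer for senescence and the shorter for splicing errors, aligned with Hisat2. The labels match the senescence setting, and the processing notes name TopHat2, but why the series text differs was not resolved. The libraries held from 12555908 to 16712174 reads in genes, and no difference below has a replicate check.

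Fatty acid synthesis starts from citrate, which ACLY splits to cytosolic acetyl-CoA. ACACA and ACACB carboxylate acetyl-CoA to malonyl-CoA, FASN builds palmitate from it, ELOVL6 lengthens palmitate to stearate, and SCD puts the first double bond into the saturated chain. FADS1 and FADS2 desaturate polyunsaturated fatty acids, and ACSL1 couples fatty acids to coenzyme A. Many of these genes are known targets of SREBP-1c, the product of SREBF1, and of ChREBP, the glucose-responsive factor that MLXIPL encodes, and insulin is a classical inducer of the pathway.

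The label of the cells was compared with marker genes. Of 9 genes of luminal and hormone-receptor breast cells, PGR was at or under 3 counts in each library, and ESR1, EPCAM and CDH1 lay between 0.239 and 1.95 CPM. ERBB2 measured 110 to 143 CPM, and the keratins KRT8 and KRT18 were also present. GATA3 and FOXA1 were detected in each library at lower levels, with 70 to 218 reads for GATA3. FOXA1 had 19 reads untreated, 57 with palbociclib, 30 with indisulam and 57 with the combination. The 7 mesenchymal markers, led by FN1 and VIM, summed to between 17727 and 26438 CPM. The adipocyte list summed to 148 CPM untreated, 119 with palbociclib, 100.5 with indisulam and 74.1 with the combination, nearly all of it from ADIPOR2, while ADIPOQ and LEP had at most 2 counts and CIDEA had 0 in each library. The summed adipocyte list was thus highest untreated and lowest with the combination, as was the sum of the 10 genes. The single drugs stood in the other order, with the 10 genes at 1684 CPM with palbociclib and 2121 CPM with indisulam. The part of the adipocyte list in the lipid genes below was not tested. The 4 hepatocyte markers summed to at most 0.539 CPM. The immune list summed to 15.7 to 21.4 CPM, from PTPRC and CD14, and CD3E had 0 counts.

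The sequences just upstream of SCD and MLXIPL, the lowest of the 10 genes in the ratio of the combination to untreated, and of ACLY, the nearest to 1 in it, are shown because these promoters are where the factors named above are known to act. They are RefSeq windows of 250 bases on GRCh38.p14, written 5′ to 3′ and ending at the base before an annotated start. Capitals mark CCAAT, the core of the site of NF-Y, and GGGCGG, the GC box of the Sp1 family, on either strand. SCD lies on the plus strand (chr10:100346983-100347232), MLXIPL on the minus strand (chr7:73624523-73624772, of which 21 bases are exon in the longest gene models) and ACLY on the minus strand (chr17:41919023-41919272).
SCD: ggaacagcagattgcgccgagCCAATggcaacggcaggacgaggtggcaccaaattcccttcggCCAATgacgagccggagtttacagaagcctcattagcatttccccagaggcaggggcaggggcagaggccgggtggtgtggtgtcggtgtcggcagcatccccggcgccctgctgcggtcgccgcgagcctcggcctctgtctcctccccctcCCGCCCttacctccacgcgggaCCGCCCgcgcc
MLXIPL: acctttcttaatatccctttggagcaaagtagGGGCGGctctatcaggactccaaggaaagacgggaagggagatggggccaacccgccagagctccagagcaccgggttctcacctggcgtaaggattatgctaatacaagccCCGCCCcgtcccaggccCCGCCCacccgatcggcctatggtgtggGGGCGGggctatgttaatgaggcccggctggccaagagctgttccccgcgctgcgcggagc
ACLY: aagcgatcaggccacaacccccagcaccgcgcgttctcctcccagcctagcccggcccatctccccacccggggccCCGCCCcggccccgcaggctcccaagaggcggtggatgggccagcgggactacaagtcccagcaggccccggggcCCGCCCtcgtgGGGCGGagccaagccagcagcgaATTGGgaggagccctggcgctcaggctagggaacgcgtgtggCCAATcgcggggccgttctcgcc
The SCD window held 2 matches to CCAAT and 2 to GGGCGG, the MLXIPL window 0 and 4, and the ACLY window 2 and 3, and no base lay in both motifs. Windows were found for 9 of the 10 genes, with 18 windows in all, and FASN had none in the table. CCAAT was in 7 of the 18 windows, which belong to 5 of the 9 genes, and in 32.0% of all 35116 windows of the same length. The 2 ACLY windows overlap and hold the same CCAAT matches, so the 7 counts that stretch more than once. GGGCGG was in 12 of the 18 windows and in 42.6% of all. The palindrome CACGTG, part of the site of ChREBP, was in no window of these genes and in 6.34% of all. TCACNCCAC, a form of the sterol regulatory element, was in 1 of the 18, a window of ACSL1, and in 0.883% of all. Of the bases of that ACSL1 window, 235 are exon of ACSL1 in other gene models. These counts describe letters in the windows and say nothing about which factor was bound.

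Together the 10 genes took 0.391% of the untreated library's gene reads. Their share was 0.168% with palbociclib, 0.212% with indisulam and 0.147% with the combination. The untreated library was the highest of the 4 for 9 genes, with FADS1 as the exception, and the combination was the lowest for 5. For ACACA and FADS2 its margin to the next lowest library was within counting error. The shares of all tested genes with these orders of libraries are not reported here. Values are given on 2 scales, the level in CPM and the log2 ratio between libraries, and the brackets give 95% intervals from counting error alone. In bulk RNA, fewer cells that express a gene and less RNA per cell cannot be told apart.

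**Figure D1:**
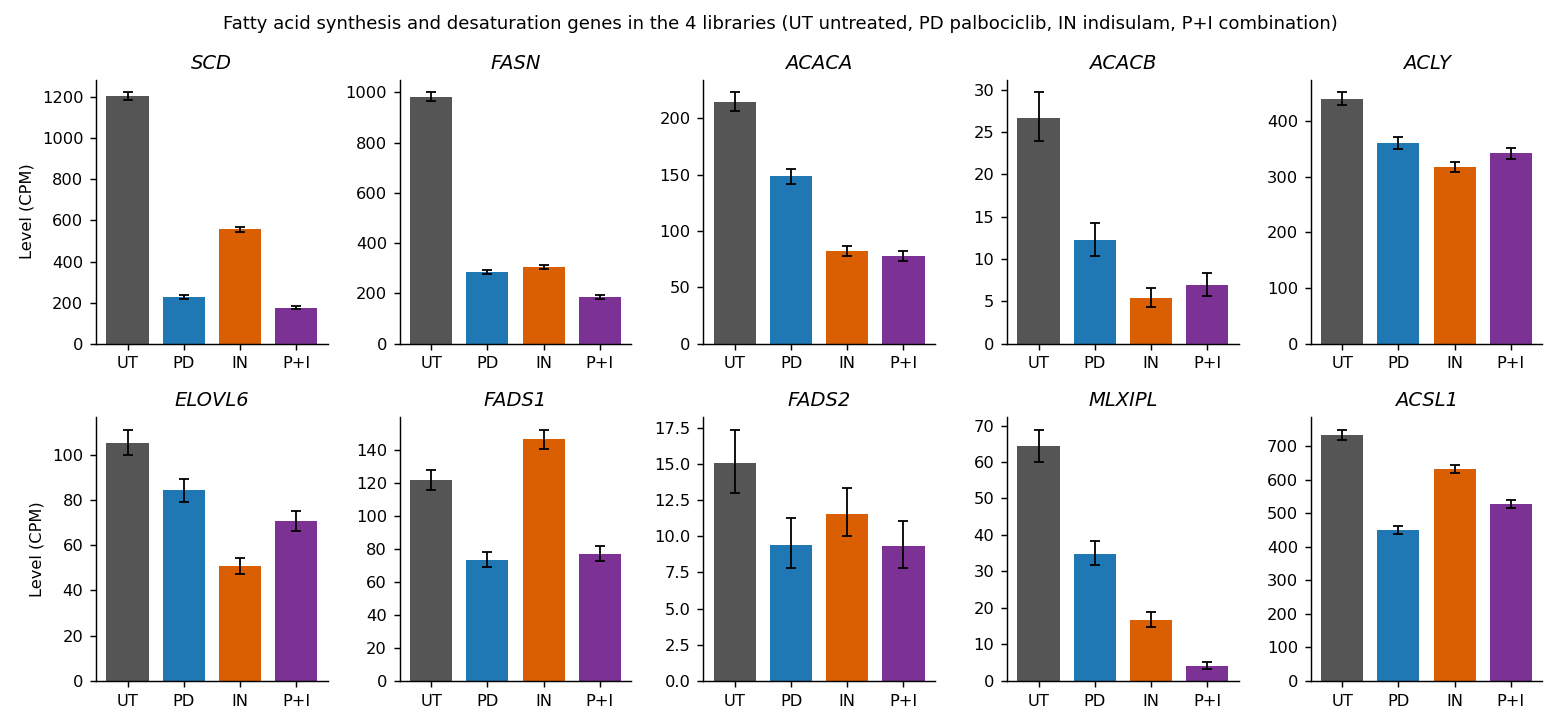
Level of each of the 10 genes (CPM, bars starting at 0, a scale of its own for each gene) in the untreated (UT), palbociclib (PD), indisulam (IN) and combination (P+I) libraries, 1 library each, with bars of 95% counting error. SCD drops from 1206 to 227 CPM with palbociclib, MLXIPL steps down to 4.11 CPM in the combination, and ACLY stays between 317 and 439.6 CPM.

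ACLY, which supplies acetyl-CoA, measured 439.6 CPM untreated, 360.4 with palbociclib, 317 with indisulam and 342 with the combination. All 3 treated libraries were lower than the untreated one, and none by as much as 2-fold. The log2 ratios to untreated were -0.29 (-0.34 to -0.23), -0.47 (-0.52 to -0.42) and -0.36 (-0.42 to -0.31) in the same order.

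The acetyl-CoA carboxylases differed from each other in level and in their response to palbociclib. ACACA, the cytosolic enzyme of synthesis, measured 215 CPM untreated, 148 with palbociclib, 82.2 with indisulam and 77.4 with the combination. Both libraries with indisulam were low and close together, and the palbociclib library lay between them and the untreated one. ACACA fell 2.61-fold with indisulam, a log2 ratio of -1.39 (-1.48 to -1.29), while the ratio of palbociclib to untreated was -0.53 (-0.62 to -0.45).

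ACACB, the mitochondrial form whose malonyl-CoA restrains fatty acid import for oxidation, had far fewer reads. It had 335 reads untreated, 155 with palbociclib, 90 with indisulam and 99 with the combination, or 26.7, 12.2, 5.39 and 6.89 CPM. Every treated library was below the untreated one by over 2-fold, and the libraries with indisulam were the lowest. ACACB fell 2.18-fold with palbociclib, a log2 ratio of -1.12 (-1.40 to -0.85), and 4.90-fold with indisulam, a log2 ratio of -2.29 (-2.63 to -1.96).

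FASN, the multienzyme that makes palmitate, measured 982 CPM untreated, 285 with palbociclib, 303 with indisulam and 185 with the combination. Either drug alone took FASN to about the same level, and the combination was lower than both. The fall was 3.45-fold with palbociclib, 3.24-fold with indisulam and 5.30-fold with the combination. The ratio of indisulam to palbociclib was 0.09 (0.03 to 0.15) on the log2 scale.

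ELOVL6, the elongase of palmitate, measured 105 CPM untreated, 84.3 with palbociclib, 50.7 with indisulam and 70.7 with the combination. It was lowest with indisulam alone, where it fell 2.08-fold with a log2 ratio of -1.05 (-1.18 to -0.93), just past the 2-fold threshold. The combination lay above indisulam by 0.48 (0.35 to 0.61) on the log2 scale.

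SCD, stearoyl-CoA desaturase, lies at chr10:100347233-100364826 on GRCh38. Its level was 1206 CPM untreated, 227 with palbociclib, 557 with indisulam and 174 with the combination, from 15137, 2882, 9307 and 2497 reads. The libraries with palbociclib were the lower pair, and indisulam alone left 46.2% of the untreated level. SCD fell 5.31-fold with palbociclib, 2.16-fold with indisulam and 6.93-fold with the combination. Of the 14269 genes, 47 had a lower ratio of palbociclib to untreated than SCD. SCDP1, a processed pseudogene of SCD, had between 0 and 3 counts per library, and reads that align to both copies were counted for neither.

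The desaturases FADS1 and FADS2 lie next to each other on chromosome 11 and share 490 exon bases on opposite strands. FADS1 measured 122 CPM untreated, 73.5 with palbociclib, 146 with indisulam and 76.9 with the combination. The libraries with palbociclib were low and the libraries without it high, with indisulam alone the highest. The log2 ratio was -0.73 (-0.84 to -0.61) for palbociclib to untreated and -0.93 (-1.03 to -0.83) for the combination to indisulam, both short of 2-fold. FADS2 had 15.1 CPM untreated, 9.38 with palbociclib, 11.5 with indisulam and 9.33 with the combination, from 119 to 193 reads. The untreated library was the highest, no FADS2 ratio reached 2-fold, and the order of the 3 treated libraries was not resolved at this depth, since the intervals between them included 0. FADS2 also shares 49 exon bases with FEN1, a replication nuclease gene on the same strand that had 201 reads in the untreated and 981 in the combination library. Whether the counting used strand was not given in the sources used here, so reads in the shared bases of this locus may be missing from these levels.

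ACSL1, an acyl-CoA synthetase, measured 734 CPM untreated, 449 with palbociclib, 630.5 with indisulam and 528 with the combination. It was lowest with palbociclib, at 61.3% of the untreated level, and no ratio reached 2-fold. The log2 ratio of palbociclib to untreated was -0.71 (-0.75 to -0.66), and that of indisulam was -0.22 (-0.26 to -0.18).

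MLXIPL, which encodes ChREBP, lies at chr7:73593194-73624543 on GRCh38. It had 807 reads untreated, 442 with palbociclib, 281 with indisulam and 59 with the combination, or 64.3, 34.8, 16.8 and 4.11 CPM. Its level stepped down from untreated to palbociclib to indisulam to the combination, and the combination kept 6.39% of the untreated level. MLXIPL fell 3.81-fold with indisulam, a log2 ratio of -1.93 (-2.13 to -1.73), and 15.4-fold with the combination, a log2 ratio of -3.94 (-4.32 to -3.57). With palbociclib alone the ratio was -0.88 (-1.05 to -0.72), short of 2-fold.

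The first comparison was the effect of palbociclib, estimated without and with indisulam from pairs of libraries that share none. A gene was called where its ratio was at least 2-fold and its counting interval excluded a ratio of 1. SCD, FASN and ACACB, 3 of the 10 genes, were called lower with palbociclib against untreated, as were 4.95% of the tested genes. None was called higher, where 5.96% of tested genes were. In the combination against indisulam, SCD and MLXIPL were called lower, 2 of 10, as were 3.19% of all tested genes. None was called higher there, where 5.09% of tested genes were. SCD was the only one of the 10 called lower in both estimates, as 1.26% of tested genes were. Its log2 ratios were -2.41 (-2.47 to -2.35) and -1.68 (-1.74 to -1.62). FASN had -1.79 (-1.84 to -1.73) without indisulam and -0.71 (-0.78 to -0.64) with it. FADS1 had -0.73 and -0.93, both short of the threshold. MLXIPL had -0.88 without indisulam, short of the threshold, and -2.01 (-2.41 to -1.62) with it, the lowest of the 10 genes there. ACACB had -1.12 without indisulam and 0.35 (-0.05 to 0.76) with it, an interval that includes 0. The median log2 ratio of the 10 genes was -0.72 without indisulam and -0.28 with it, beside -0.02 and -0.01 over all tested genes. Because the genes were chosen with these ratios known, the counts describe them and test nothing.

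The effect of indisulam was estimated in the same way, without and with palbociclib. MLXIPL, ACACB, FASN, ACACA, SCD and ELOVL6, 6 of the 10 genes, were called lower with indisulam against untreated, as were 6.71% of tested genes. None was called higher, where 8.44% of tested genes were. In the combination against palbociclib only MLXIPL was called, 1 of 10 where 7.4% of tested genes were called lower and 9.62% higher. It fell 8.35-fold, a log2 ratio of -3.06 (-3.45 to -2.68). MLXIPL was thus the only one of the 10 called lower in both estimates of indisulam, where 3.67% of tested genes were. ACACA came close to the threshold with palbociclib present, at -0.94 (-1.05 to -0.83), and passed it with TMM factors at -1.01, and also with DESeq2 size factors. ACACB had -0.82 (-1.18 to -0.46), FASN -0.62 (-0.69 to -0.55) and SCD -0.38 (-0.46 to -0.31) in that estimate. FADS1 went the other way without palbociclib, at 0.27 (0.17 to 0.36), and had 0.06 (-0.06 to 0.19) with it, which turned to -0.01 with TMM factors. The median of the 10 genes was -1.08 without palbociclib and -0.32 with it, beside 0.06 and 0.07 over all tested genes.

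**Figure D2:**
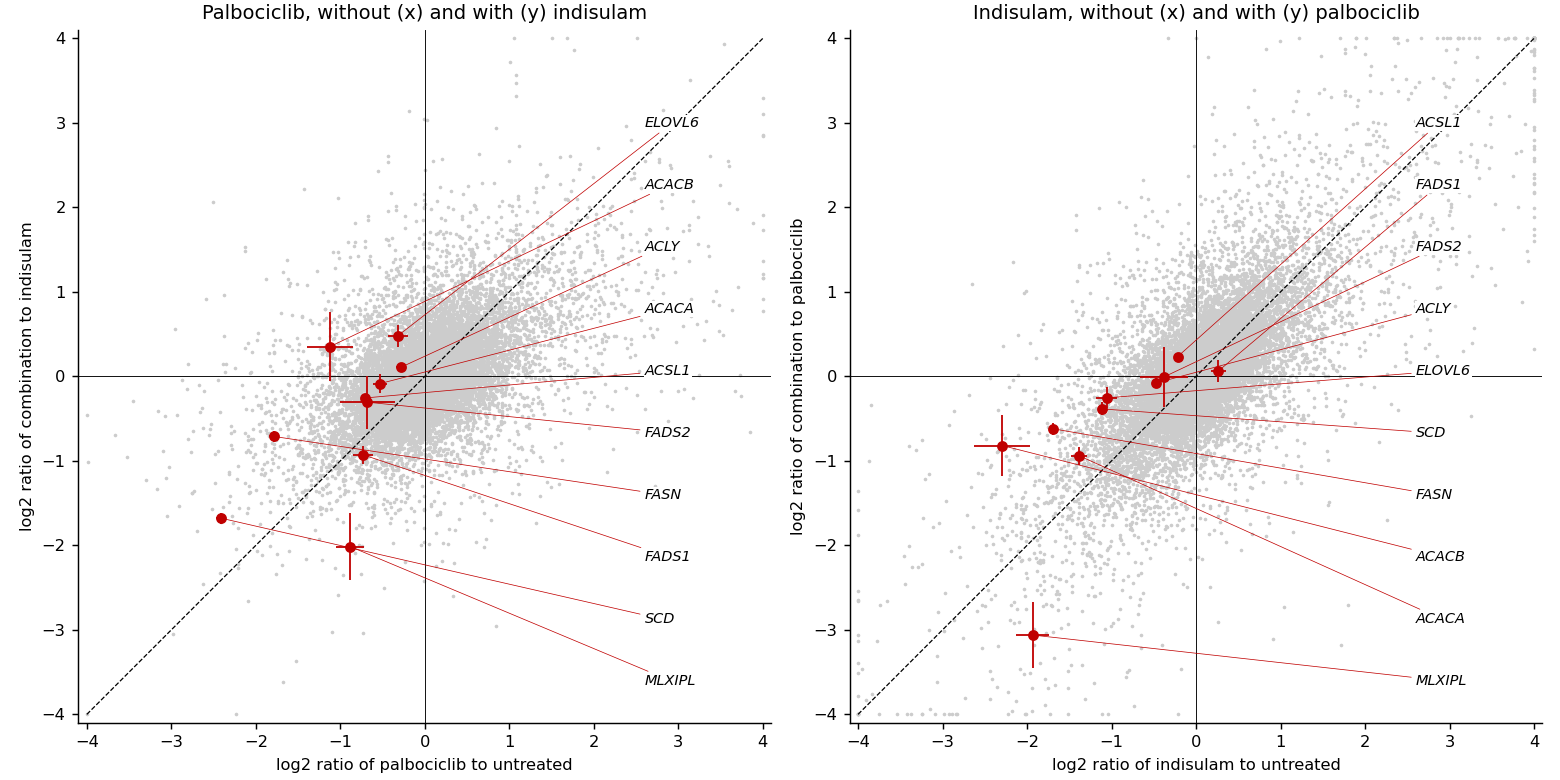
Log2 ratio of each drug in the absence (x) and presence (y) of the other drug, for palbociclib (left) and indisulam (right), with the 10 genes in red with 95% counting intervals and all tested genes in grey, drawn at the edge where beyond 4. The dashed line marks equal estimates. SCD is low in both estimates of palbociclib, and MLXIPL is low in both estimates of indisulam and also below 0 in both of palbociclib, at -0.88 and -2.01.

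In the comparison of the single drugs with each other, the genes split. ACACB and MLXIPL were lower with indisulam than with palbociclib, 2 of 10 where 7.8% of tested genes were called lower, at -1.17 (-1.54 to -0.80) and -1.05 (-1.26 to -0.83). SCD was higher with indisulam than with palbociclib, 1 of 10 where 8.84% were called higher, at 1.29 (1.23 to 1.35). FADS1, at 0.99 (0.88 to 1.10), was just under the threshold in the same direction as SCD. ACACA and ELOVL6 had -0.85 (-0.95 to -0.75) and -0.73 (-0.86 to -0.60), in the direction of ACACB, and neither reached 2-fold.

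The combination against untreated showed the largest falls of SCD, FASN, MLXIPL and ACACA, though ACACA's margin over indisulam alone was within counting error. With ACACB, these 5 of 10 genes were called lower, where 10.6% of tested genes were, and none was called higher, where 13% were. The log2 ratios were -3.94 for MLXIPL, -2.79 (-2.85 to -2.73) for SCD, -2.41 (-2.47 to -2.35) for FASN, -1.94 (-2.26 to -1.62) for ACACB and -1.47 (-1.57 to -1.37) for ACACA. The other 5 genes ranged from -0.69 for FADS2 to -0.36 for ACLY. The 3 treated libraries were each compared with the same untreated library, so these ratios are not independent. In those comparisons 9 of the 10 genes, all but FADS1, were lower in every treated library with counting intervals that excluded 0, as 14.6% of tested genes were.

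To compare the combination with the single drugs, the sum of both single-drug log2 ratios was subtracted from the log2 ratio of the combination to untreated. This departure was above 0 for 7 genes, so that their combined fall was smaller than the sum, below 0 for MLXIPL and FADS1, and 0.37 (-0.08 to 0.83) for FADS2. Over all tested genes the median departure was 0.005. ACACB at 1.48 (0.98 to 1.97) and FASN at 1.08 (0.99 to 1.16) departed upward by over 2-fold with intervals that excluded 0, 2 of 10 where 4.11% of tested genes did. MLXIPL at -1.13 (-1.56 to -0.70) departed downward by over 2-fold, 1 of 10 where 3.93% did. ELOVL6 had 0.80 (0.62 to 0.98) and SCD 0.73 (0.64 to 0.82). For genes of a mean of at least 100 CPM, the departure had a robust SD over genes of 0.40, and for those from 20 to 100 CPM one of 0.37. From 5 to 20 CPM, the range of ACACB and FADS2, it was 0.52. This spread is made up of noise between the libraries together with real interaction. The departures of ACACA at 0.45, ACSL1 at 0.45, ACLY at 0.39 and FADS1 at -0.20 were near or within that spread.

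**Figure D3:**
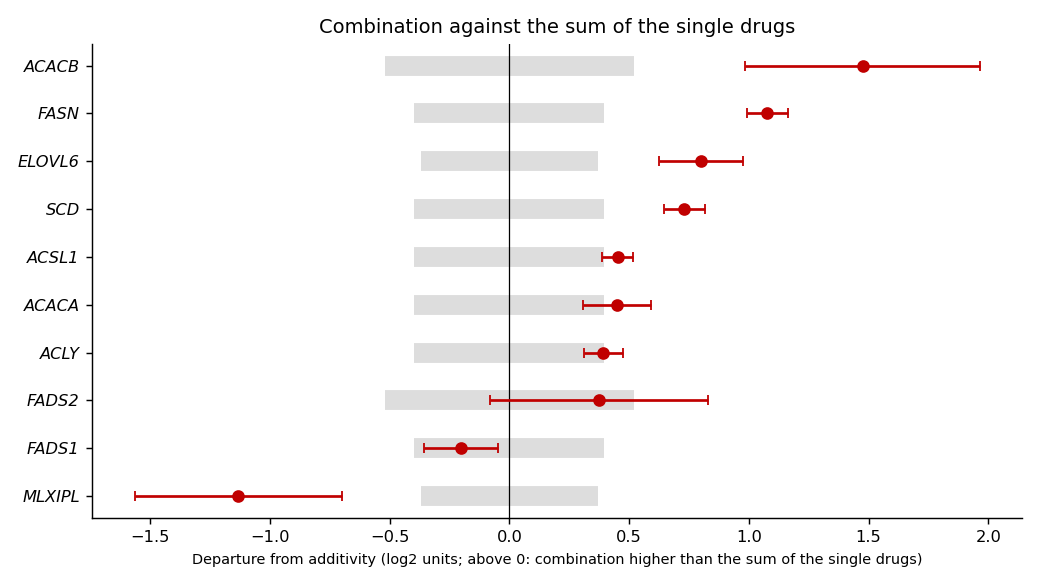
Departure of the combination from the sum of the single drugs (log2 units) for the 10 genes, with 95% counting intervals; grey bars span 1 robust SD of the departure on either side of 0 over all tested genes in the same range of mean CPM. ACACB, FASN, ELOVL6 and SCD lie clear above the grey bars, ACSL1 and ACACA at 0.45 lie just past their edge, and MLXIPL lies below at -1.13.

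The order of the levels among the 10 genes was compared per kilobase of exon, since longer genes give more reads. In the untreated library SCD was the highest at 230 CPM per kilobase, followed by ACSL1 at 113, FASN at 105 and ACLY at 84.4. ACACA, ELOVL6, MLXIPL and FADS1 followed at 16.5, 14.5, 13.3 and 11.9, where ELOVL6 and MLXIPL, and MLXIPL and FADS1, had overlapping counting intervals. ACACB at 1.84 and FADS2 at 1.43 were the lowest. In the combination ACSL1 at 81.2 and ACLY at 65.6 CPM per kilobase came before SCD at 33.2 and FASN at 19.9. MLXIPL fell to 0.853 CPM per kilobase there, with an interval that overlapped that of FADS2 at 0.884. Palbociclib alone put ACLY at 69.2 and ACSL1 at 69.1, which overlapped, ahead of SCD at 43.3 CPM per kilobase.

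The genes with the profiles most like SCD and MLXIPL were found by the Euclidean distance between the 3 log2 ratios to untreated, as a description over 4 libraries. Among 8036 genes of at least 20 CPM, INSIG1 was nearest to SCD at a distance of 0.32, followed by THEMIS2 at 0.42, PCK2 at 0.86, FASN at 0.93 and SREBF1 at 1.06. FASN was the only other gene of the 10 among these 5, with MLXIPL at 2.08 and ACACA at 2.31, while ACACB at 1.94 was under the minimum level. MLXIPL, with the minimum set at 1 CPM, had MYBPC1 nearest at a distance of 0.14 among 14268 genes. NT5M at 0.56, ST6GALNAC2 at 0.65, HSD17B8 at 0.66 and BEST2 at 0.70 came next. These last genes lay between 0.487 and 0.696 CPM in the combination, so few reads stood behind their ratios there. MYBPC1, a myosin-binding protein gene, measured 263, 157, 69.6 and 17.3 CPM in the 4 libraries in the order untreated, palbociclib, indisulam and combination.

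**Figure D4:**
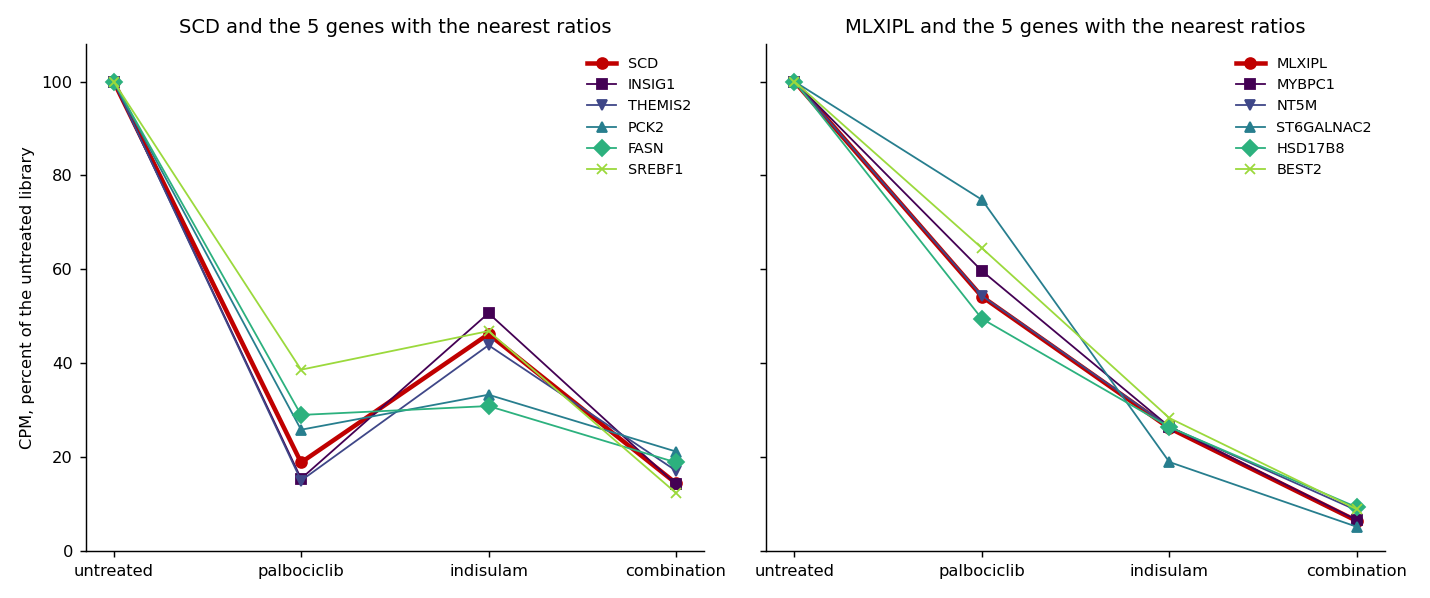
Level of SCD (left) and MLXIPL (right), in red, and of the 5 genes nearest to each, as a percent of the untreated library (y axis from 0) in the 4 libraries, 1 library each. SCD is at 18.8% with palbociclib and 46.2% with indisulam, and MLXIPL steps down to 6.39% in the combination.

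Genes that control the pathway were examined beside the 10. SREBF1 measured 432 CPM untreated, 167 with palbociclib, 203 with indisulam and 53.4 with the combination, and fell in every one of the 4 drug estimates. Its log2 ratios were -1.37 and -1.92 for palbociclib without and with indisulam, and -1.09 and -1.64 for indisulam without and with palbociclib. The 4 ratios come from the same 4 libraries, so they are not independent of each other. SREBF2, the gene of the cholesterol regulator SREBP-2, fell in both estimates of palbociclib, at -1.13 and -1.37, as did INSIG1, which retains SREBP in the endoplasmic reticulum, at -2.70 and -1.83. SCAP, the escort of SREBP, lay between 84.9 and 100.3 CPM in all libraries. NR1H3, the liver X receptor alpha gene and a known inducer of SREBF1, fell in both estimates of indisulam, at -1.46 and -1.70. Of the 12 tested genes of the SREBP machinery, 3 were called lower and 0 higher with palbociclib against untreated, and 2 and 0 with indisulam. These counts and those of the lists that follow stand beside 4.95% lower and 5.96% higher over all tested genes with palbociclib, and 6.71% and 8.44% with indisulam, and in lists of this size a single call is near those shares.

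The binding partner of ChREBP and its paralog moved less than MLXIPL itself. MLX measured 82.5, 68.3, 66.5 and 45.1 CPM and MLXIP 85.1, 91.5, 81.4 and 61.6 CPM in the order untreated, palbociclib, indisulam and combination, and no ratio of either to untreated reached 2-fold. TXNIP, a classical glucose-responsive target of these factors, measured 3147 CPM untreated, 1390 with palbociclib, 721 with indisulam and 377 with the combination, in the same order of libraries as MLXIPL. It fell in both estimates of indisulam, at -2.13 and -1.88. ARRDC4, a related target, had -0.89 with indisulam against untreated, and MXD1 rose at 1.28. Over the 7 tested genes of this list, 1 was called lower and 0 higher with palbociclib against untreated, and 1 and 1 with indisulam.

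Upstream of the 10 genes, in the supply of acetyl-CoA and NADPH, 0 of 10 tested genes were called with palbociclib against untreated, and 3 were lower and 0 higher with indisulam. ACSS2, which makes acetyl-CoA from acetate, measured 137 CPM untreated, 69.2 with palbociclib, 41.9 with indisulam and 31.2 with the combination. ACSS2 fell in both estimates of indisulam, at -1.70 and -1.15.

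Among the other elongases and desaturases, which stand beside ELOVL6 and SCD in the pathway, 0 of 13 tested genes were called lower with either drug alone, 2 were higher with palbociclib and 1 with indisulam. SCD5, the paralog of SCD, rose in both estimates of palbociclib, in which SCD fell, with 3.27 CPM untreated, 8.67 with palbociclib, 4.01 with indisulam and 12.7 with the combination. Its log2 ratios for palbociclib were 1.39 (0.88 to 1.90) without and 1.65 (1.25 to 2.05) with indisulam, at levels far under those of SCD. Over all tested genes 2.06% were called higher in both estimates of palbociclib. ELOVL7 was called higher in both estimates of indisulam, at 2.31 and 1.73, as 4.88% of tested genes were, while ELOVL6 had -1.05 and -0.25.

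Of 11 tested genes of other acyl-CoA synthetases and fatty acid handling, which stand beside ACSL1, 0 were lower and 1 higher with palbociclib against untreated, and 4 were lower and 0 higher with indisulam. ACSL5 fell in both estimates of indisulam, at -1.50 and -1.31, and SLC27A1, a fatty acid transporter, at -1.03 and -1.58, while ACSL1 did not reach 2-fold in either. CD36, a fatty acid translocase, rose in both estimates of palbociclib, at 1.51 and 1.08, and fell in both of indisulam, at -2.54 and -2.98.

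The cholesterol genes controlled by SREBP-2 were taken as a neighbouring pathway. Of 15 tested, 4 were lower and 0 higher with palbociclib against untreated, with a median log2 ratio of -0.61, and 0 were called with indisulam, with a median of -0.19. The 10 fatty acid genes had medians of -0.72 and -1.08 in these comparisons. DHCR7, an enzyme of the last steps of cholesterol synthesis, had -1.28 in the comparison of palbociclib with untreated and -0.57 in that of the combination with indisulam.

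**Figure D5:**
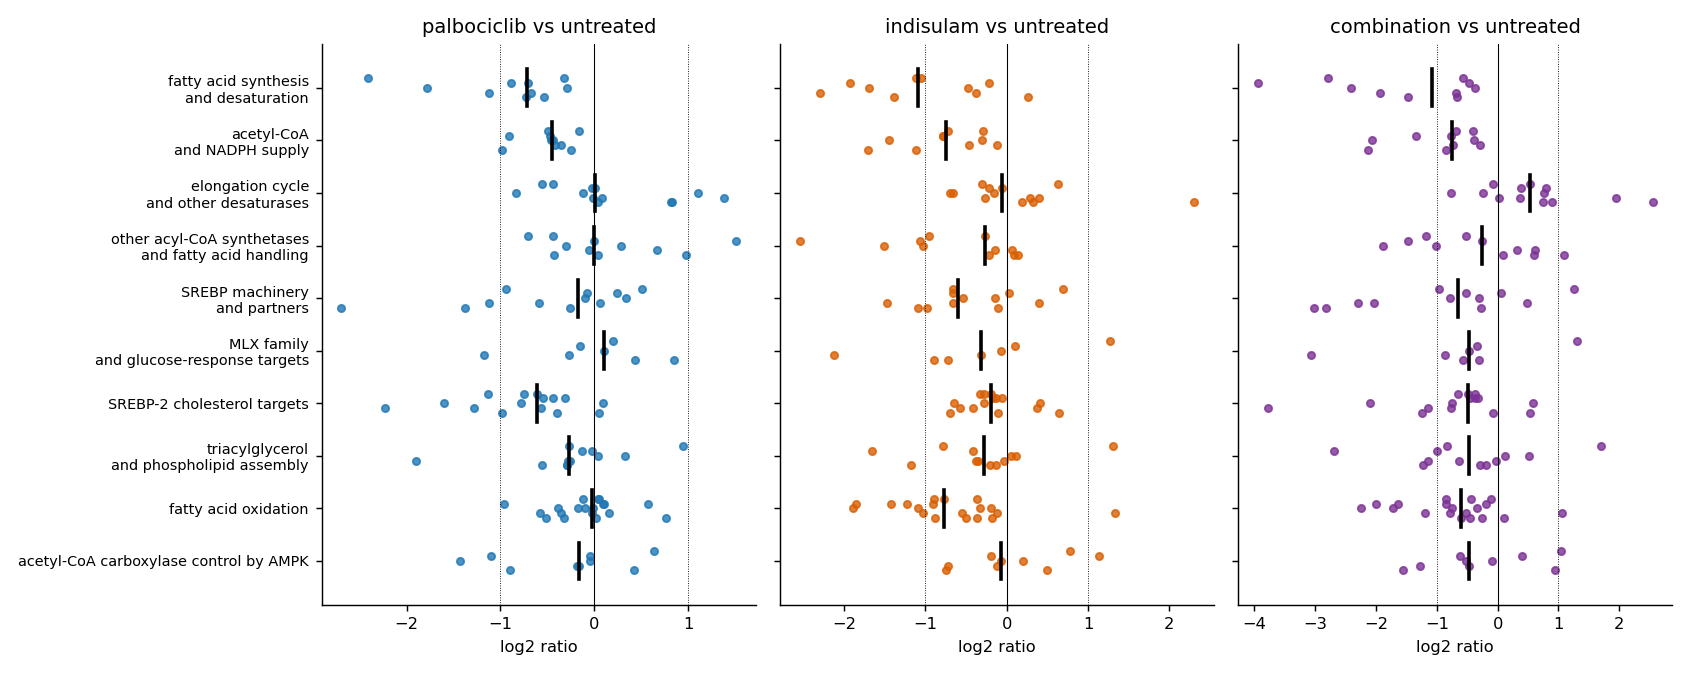
Log2 ratio to the untreated library of each tested gene (points) in the 10 genes of fatty acid synthesis and desaturation and in 9 further lists, for palbociclib, indisulam and the combination, with the median of each list as a black bar and dotted lines at 2-fold. The median of the 10 genes lies at -0.72 with palbociclib and -1.08 with indisulam.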

How the data were processed

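Total RNA of 4 SUM159 cultures was turned into stranded mRNA libraries, 1 per condition. The authors deposited whole-number counts of reads per Ensembl gene, not normalized. The submitters' processing notes name TopHat2 2.1, HTSeq and GRCh38 without their roles, and the annotation release and the strand setting of the counting are not given in the sources used here. Whether technical duplicates were pooled was not stated. Tallies of reads outside genes, in several genes or at several places, 9.61% to 10.1% of all counts in the tables, were left out of totals. A read that aligned to several places was not counted, so near-identical copies are undercounted.

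Counts were divided by the library's gene total and multiplied by the mean total, a pseudocount of 1 scaled count was added, and log2 ratios were given 95% Poisson intervals. They cover counting error alone and no variation between cultures. The reads carried no molecular identifiers, so repeated molecules could not be recognised, and the intervals do not allow for them. Conditions had 1 library each, so p-values were not computed. The depth was 12555908 reads in genes untreated, 12691481 with palbociclib, 16712174 with indisulam and 14359529 with the combination, and 3 counts corresponded to 0.180 to 0.239 CPM. Genes with a mean of at least 1 CPM were kept, and the ratios were tested on simulated data. edgeR 4.0.16 and DESeq2 1.42.0 (R 4.3.3) gave alternative scaling factors only, and the rest ran in Python 3.11.15. Other alternatives were upper-quartile factors, totals without mitochondrially encoded genes, a pseudocount of 5, a 1.5-fold threshold and other filters.

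The members and the lists were chosen with earlier results of these data known. Named beside them were each list's genes called in both estimates of 1 drug, up to 4 of the largest palbociclib ratios at 5 CPM or more, the control genes, and the 5 genes nearest to SCD and MLXIPL. Of those with the largest palbociclib ratios, the text names a selection, and some genes of the lists are not reported here. Gene positions and exon lengths are from GENCODE release 44 on GRCh38, counted from 1, and upstream sequences from RefSeq on GRCh38.p14, which matched the genome in all 18 windows.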

Additional observations from a re-analysis of the deposited data

Results flagged for a closer look

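In 3 cases the ratio of a drug had opposite signs without and with the other drug. Each group is a single library, so the difference between the estimates was not tested against a spread between replicates. ACLY had a log2 ratio for palbociclib of -0.29 without indisulam and 0.11 with it, a difference of 0.39. ELOVL6 had -0.32 without and 0.48 with indisulam, a difference of 0.80. ACSL1 had a log2 ratio for indisulam of -0.22 without palbociclib and 0.23 with it, a difference of 0.45. The counting intervals of all 6 ratios excluded 0, and none of the ratios reached 2-fold. Each difference equals the gene's departure from additivity. Over genes in the same range of mean CPM, the departure had a robust SD of 0.40 for ACLY and ACSL1 and 0.37 for ELOVL6. The difference of ACLY was thus within that spread. The share of all tested genes with such a change of sign is not reported here.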

How the results depend on the processing

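No paired analysis was possible because each condition had 1 library, and for the same reason no replicate could be left out. No result reversed. Of 270 values of single genes under the alternatives, 249 stayed within their counting interval, 21 moved beyond it, and 1 changed sign, the FADS1 ratio of the combination to palbociclib with TMM factors. Members called lower in the combination against palbociclib numbered 2 with TMM and 2 with DESeq2 factors in place of 1. At 1.5-fold, 7 members were called lower with palbociclib against untreated and 4 in the combination against indisulam. The numbers were 6 with indisulam against untreated, 4 in the combination against palbociclib and 7 in the combination against untreated. Of the 14269 tested genes, 1755, 1464, 2043, 2075 and 2779 were called lower at 1.5-fold in these comparisons, in that order. The calls given next are in either direction. Over all genes the 1.5-fold threshold gave 3573 calls for palbociclib against untreated in place of 1558, 3196 for the combination against indisulam in place of 1181, 4510 for indisulam against untreated in place of 2162, 4713 for the combination against palbociclib in place of 2429 and 6085 for the combination against untreated in place of 3360. In the same order of comparisons, a filter at 5 CPM gave 834, 544, 1212, 1396 and 2104, since fewer genes were tested. With no filter, the combination against indisulam gave 2133. Depth limits ACACB, FADS2 and MLXIPL most, with 90, 119 and 59 reads in their lowest libraries.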

Other observations

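Genes on the other side of fatty acid metabolism were measured in the same libraries. Of 19 tested genes of fatty acid oxidation, 0 were called with palbociclib against untreated, where the median log2 ratio was -0.02, and 6 were lower and 1 higher with indisulam, with a median of -0.77. Over all tested genes 4.95% were called lower and 5.96% higher with palbociclib, with a median of -0.02, and 6.71% and 8.44% with indisulam, with a median of 0.06. ACADVL, the very-long-chain acyl-CoA dehydrogenase, measured 228 CPM untreated, 244 with palbociclib, 63.2 with indisulam and 73.1 with the combination, and fell in both estimates of indisulam, at -1.85 and -1.74. ACADS, HADH and ETFDH, further enzymes of beta-oxidation and electron transfer, also fell in both. CPT1A, the gate of mitochondrial import that malonyl-CoA inhibits, lay between 16.6 and 32.0 CPM, and no ratio to untreated reached 2-fold.

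Among 12 tested genes that assemble triacylglycerol and phospholipid, 1 was lower and 0 higher with palbociclib against untreated, and 2 were lower and 1 higher with indisulam, where a single call in 12 is near the shares over all genes. LPCAT3, which loads polyunsaturated chains onto phospholipids, measured 77.2 CPM untreated, 70.8 with palbociclib, 24.4 with indisulam and 11.8 with the combination, and fell in both estimates of indisulam, at -1.66 and -2.57. Of 9 tested genes of the AMPK complex and its partners, which control acetyl-CoA carboxylase, 2 were lower and 0 higher with palbociclib and 0 and 1 with indisulam. PRKAA2, a catalytic subunit of AMPK, was the higher one with indisulam, at 1.14, and was also called higher with palbociclib present, but it was one of the 2 lower with palbociclib alone, at -1.10, and few reads stood behind it. PLIN1, the lipid droplet coat gene in the adipocyte list, had 84 reads untreated, 29 with palbociclib, 23 with indisulam and 1 with the combination.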
